A study of Mus musculus with 14 samples.

Results

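Serpins are protease inhibitors that end the activity of a protease by trapping it in a covalent complex. Members of clade B mostly stay inside the cell, where they are known to protect cells that carry proteases in granules from proteases that leak into the cytosol. The 6 genes described here, of 18194 genes on the array, are clade B serpins with known granule or secretory proteases as partners. Serpinb9 binds granzyme B, mouse Serpinb6b binds granzyme A, Serpinb1a binds neutrophil elastase, proteinase 3 and cathepsin G, and Serpinb6a binds cathepsin G. Serpinb8 binds furin, and Serpinb2, also called plasminogen activator inhibitor type 2, binds urokinase. They were chosen by name, without a rule on their signals, but with earlier results of these data known. The array carries 9 probe sets for them among 34958 probe sets that name exactly 1 gene. Of these 9, 8 passed the filter on dim signals, as did 22153 of the 34958.

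RNA came from regulatory T cells (Treg cells, a CD4 lineage defined by the transcription factor Foxp3) of Foxp3-ires-GFP knock-in mice on the 129/SvJ background (H-2b), in which the Foxp3 locus itself drives GFP and the cells were purified by sorting. Naive Treg cells came from resting spleens in 6 replicates. The protocol attached to replicates 1 to 3 also describes sorts from mice with another tumor, and these 3 are taken as resting because their titles, their source and the series' design say so. Replicates 1 to 3 are the submitters' controls for graft-versus-host disease (GVHD) and replicates 4 to 6 their controls for the tumor. GVHD-activated Treg cells, in 3 replicates, were taken on day 4 from spleens of BALB/c mice (H-2d) given lethal irradiation (900 cGy), 2000000 129/SvJ bone marrow cells and 2000000 CD4+ and CD8+ T cells of the knock-in mice, so only the donor T cells could carry GFP. Tumor-activated Treg cells, in 5 replicates, were sorted from the ascites fluid of such knock-in mice on day 5. The mice had received 1000000 P815 cells, a mastocytoma line from DBA/2 mice (H-2d), into the peritoneum. A sort purity over 95% is given for the groups other than naive replicates 1 to 3. The sources used here do not say whether animals were pooled or which samples came from separate animals, and p-values then measure only the spread between these samples. Ages are not given in the sources used here.

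Values are scaled signals, array intensities brought to the same trimmed mean of 500 on each array. A signal of 100 in at least 3 arrays was needed for a test. Changes are given on the log2(signal + 32) scale, which understates them for dim probe sets. Adjusted p-values are limma's, Benjamini-Hochberg adjusted over all 22153 probe sets, and "rose" and "fell" are used only where the adjusted p was under 0.05. Signals of different probe sets cannot be set against each other.

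The arrays differed in ways that touch these genes. The summed signal of the 8 T cell markers on the array lay between 54708 and 111595 on the naive and GVHD-activated arrays and between 4320.4 and 40074 on the tumor-activated arrays, where 6 of the 8 fell. All 10 macrophage markers rose in the tumor-activated arrays, from summed signals of 623 to 5300.3 in naive replicates 4 to 6 to between 26341 and 74345. Of the 7 mast cell markers tested, 5 rose, with summed signals of 346 to 2664 in naive replicates 4 to 6 and 23880 to 35762 in the tumor-activated arrays. Both P815 markers also rose, from 24.4 to 3254 in those naive arrays to between 17541 and 61182. Marco, Msr1, Alox15 and Mertk among the macrophage markers passed the filter only through the tumor-activated arrays. So did Cpa3, Kit and Hdc among the mast cell markers and both P815 markers, so the filter favoured a rise for all of these. Over all tested probe sets 14.1% rose and 16.4% fell in tumor, and 8.7% rose and 11.9% fell in GVHD. None of the T cell, macrophage, mast cell and P815 markers tested passed the test in GVHD. None of the 6 neutrophil markers tested passed the test in either comparison. Tumor-activated replicate 3 had the lowest T cell sum and the highest macrophage and P815 sums, and 43.3% of its probe sets reached a signal of 100 against 50.1% to 58.2% elsewhere. Naive replicate 6 was the only naive array with a P815 sum above 78.1. Of the 8 Treg markers tested, 3 fell and none rose in each comparison, and the array's Foxp3 signal was too dim to be tested. In GVHD the means of Il2ra, Ctla4, Tnfrsf18 and Tnfrsf4 were higher without passing, and those of Izumo1r, Nrp1, Gpr83 and Ikzf2 were lower. The summed Treg markers read 96927 to 100670 in naive replicates 1 to 3 and 107507 to 114044 in GVHD. These sums were 63863.5 to 67402 in naive replicates 4 to 6 and 9757 to 69714 in tumor. Of the 7 B cell markers tested, 5 fell in tumor and none passed in GVHD. Of the 5 CD8 T and NK cell markers tested, 1 rose and 2 fell in tumor and none passed in GVHD. The ratio of 3' to 5' Gapdh signal was 2.19 to 2.64 in tumor-activated replicates 1, 3, 4 and 5 and 19.9 in replicate 2. It was 7.45 to 19.1 in naive replicates 4 to 6, the tumor controls. In naive replicates 1 to 3 it was 4.27 to 5.11 and in GVHD 3.28 to 4.50. Its part in the changes was not tested. In bulk samples such as these, fewer cells of a type and less RNA per cell cannot be told apart.

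The genes lie in both of the mouse clade B clusters. In the RefSeq table of GRCm38.p6, Serpinb2 and Serpinb8 lie on chromosome 1 with Serpinb7 and Serpinb10 beside them, and Serpinb1a, Serpinb6b, Serpinb9 and Serpinb6a lie on chromosome 13, where Serpinb6b and Serpinb9 are next to each other. RefSeq promoter windows, 250 bases before to 50 after a gene's start, were found for 5 of the 6 genes, with none for Serpinb1a. Of these windows, 4 are shown because they set the neighbours Serpinb6b and Serpinb9, whose signals differed in the tumor-activated arrays, beside Serpinb2 and Serpinb8, which rose together. Capitals mark matches, on either strand, to an AP-1 site (TGANTCA), a STAT site (TTCNNNGAA) or an interferon response element (GAAA, any 2 bases, GAAA, called ISRE here). The windows are chr1:107511173-107511472 for Serpinb2, chr1:107589756-107590055 for Serpinb8, chr13:32965011-32965310 for Serpinb6b and chr13:33004291-33004590 for Serpinb9, all on the plus strand.
Serpinb2: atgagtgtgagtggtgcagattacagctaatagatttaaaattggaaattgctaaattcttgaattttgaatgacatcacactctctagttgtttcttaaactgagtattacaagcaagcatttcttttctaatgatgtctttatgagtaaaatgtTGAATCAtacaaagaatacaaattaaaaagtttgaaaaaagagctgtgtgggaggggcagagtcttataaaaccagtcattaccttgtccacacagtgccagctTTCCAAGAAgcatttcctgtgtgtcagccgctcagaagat
Serpinb8: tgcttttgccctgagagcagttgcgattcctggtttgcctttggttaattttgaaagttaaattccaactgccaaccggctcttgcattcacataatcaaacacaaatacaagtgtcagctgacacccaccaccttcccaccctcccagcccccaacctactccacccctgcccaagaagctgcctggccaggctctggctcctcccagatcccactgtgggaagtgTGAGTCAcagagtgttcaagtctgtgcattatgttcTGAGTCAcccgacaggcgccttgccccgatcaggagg
Serpinb6b: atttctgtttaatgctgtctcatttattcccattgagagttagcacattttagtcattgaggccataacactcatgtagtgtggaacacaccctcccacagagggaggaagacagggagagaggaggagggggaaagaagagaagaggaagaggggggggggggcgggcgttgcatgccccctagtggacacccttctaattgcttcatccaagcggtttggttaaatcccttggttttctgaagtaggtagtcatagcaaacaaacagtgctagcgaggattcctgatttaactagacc
Serpinb9: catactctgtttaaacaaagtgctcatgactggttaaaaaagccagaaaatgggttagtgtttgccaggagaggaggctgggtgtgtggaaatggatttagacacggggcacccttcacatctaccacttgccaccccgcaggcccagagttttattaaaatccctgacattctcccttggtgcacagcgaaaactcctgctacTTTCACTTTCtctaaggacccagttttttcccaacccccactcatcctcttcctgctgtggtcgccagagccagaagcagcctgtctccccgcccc

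The Serpinb2 window shown holds an AP-1 match that begins 94 bases before the start and a STAT match just after the start. Serpinb2 has a second, overlapping window in the table, for a start site farther downstream, from which the same matches begin 181 and 77 bases upstream. The Serpinb8 window holds 2 AP-1 matches, of which 1 begins 23 bases before the start. An AP-1 match is present in 7.81% of 32851 such windows of all genes, and a STAT match in 8.3%. Serpinb9 has an ISRE match that begins 46 bases before its start, which 3.44% of windows hold, and the Serpinb6b window has none of these. Serpinb6a has 2 start sites in the table. The window of 1 of them holds 2 STAT matches and 1 ISRE match that overlaps with the upstream STAT match, and the other holds none. No window of these genes holds a match to the NF-kB motif, which 8.46% of windows hold. These matches describe letters and do not show binding.

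**Figure D1:**
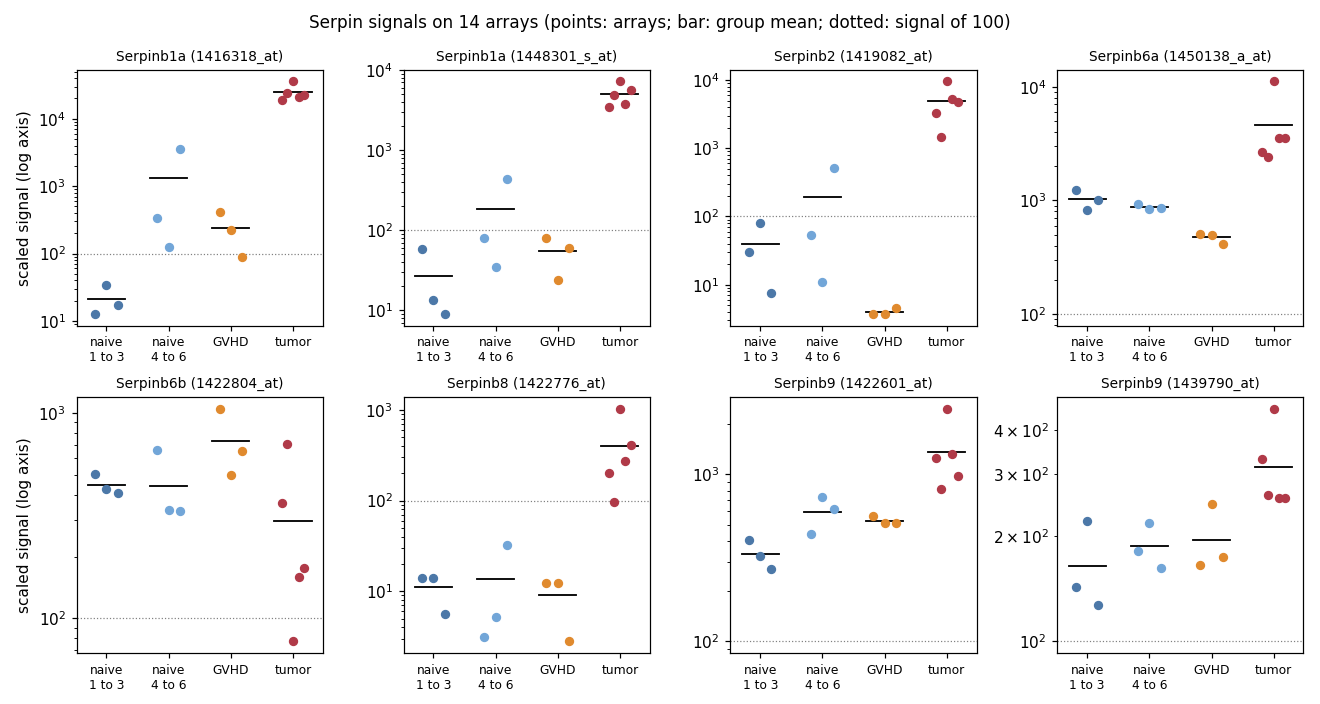
Scaled signal (log axis) of the 8 serpin probe sets that passed the filter, by group, with points for arrays, bars for group means and a dotted line at a signal of 100. In 7 of 8 panels every tumor-activated array lies above naive replicates 4 to 6, and Serpinb6b is the exception.

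The first comparison set the sorted samples from tumor ascites against those from resting spleen. In it, 5 of the 6 serpin genes rose and none fell. At the level of probe sets, 6 of 8 rose, where 14.1% of all tested probe sets rose and 16.4% fell. The median change of the 8 was 2.53 on the log2 scale, against -0.12 over all tested probe sets. For 7 of the 8, tumor-activated and naive arrays did not overlap, as for 33.8% of all tested probe sets. Without tumor-activated replicate 3 and naive replicate 6 together, 6 of 8 rose as well. Of the 6 that rose, 3 (those of Serpinb2 and Serpinb8 and the dimmer of Serpinb1a) passed the filter only through the tumor-activated arrays. The filter thus favoured their rise, and these counts and the median describe the probe sets without supporting a shift of the family. Of the 5 that pass the filter without the tumor-activated arrays, 3 rose, those of Serpinb1a (1416318_at), Serpinb6a and Serpinb9 (1422601_at).

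Serpinb1a, the inhibitor of the neutrophil-type serine proteases, showed the largest change. Its brighter probe set (1416318_at) read 341, 125 and 3520.2 in naive replicates 4, 5 and 6. In tumor-activated replicates 1 to 5 it read 19147, 23714, 35944, 21249 and 22754. The groups did not overlap, and naive replicate 6 stood above the other naive arrays. The rise was 40.5-fold (log2 5.34, SE 0.68, adjusted p = 3.81e-05). The log2 change was 6.63 without naive replicate 6 and 4.38 without naive replicate 5, so these libraries set its size. The other probe set (1448301_s_at) went from 79.4, 34.6 and 433 to 3484, 4817, 7221, 3742 and 5605. It rose by 5.00 on the log2 scale (SE 0.50, adjusted p = 4.68e-06), with a log2 change of 5.81 without naive replicate 6 and 4.41 without naive replicate 5. Both probe sets thus rose by similar amounts.

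Serpinb2, the urokinase inhibitor known for high expression in activated macrophages, read 54.2, 11 and 509 in naive replicates 4 to 6. It read 3314, 1483, 9565, 5214 and 4751 in the tumor-activated arrays. Naive replicate 6 was again the highest naive array, and the groups did not overlap. The rise was 32.8-fold (log2 5.04, SE 0.66, adjusted p = 4.48e-05), and the log2 change was 6.09 without naive replicate 6 and 4.26 without naive replicate 5.

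Serpinb8, the furin inhibitor, was below a signal of 100 on all naive and GVHD-activated arrays. Its probe set 1422776_at read 3.1, 5.2 and 32.6 in naive replicates 4 to 6 and 201, 97.5, 1036, 272 and 409 in the tumor-activated arrays. The log2 change was 2.94 (SE 0.50, adjusted p = 0.000472). Every naive reading was under the level the filter asks for, so this probe set was tested only through its tumor signal and its fold is not precise. The other Serpinb8 probe set (1458882_at) read at most 70.6 on any array and did not pass the filter.

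Serpinb6a, a cathepsin G inhibitor found in many tissues, had clear signal in resting Treg cells. It read 929, 838 and 849.9 in naive replicates 4 to 6 and 2644, 2392, 11171, 3526 and 3538 in the tumor-activated arrays. The groups did not overlap, and tumor-activated replicate 3 lay far above the other 4. The rise was 4.34-fold (log2 2.12, SE 0.38, adjusted p = 0.000757).

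Serpinb9, the granzyme B inhibitor, moved least among the genes that rose. Its brighter probe set (1422601_at) read 439, 732 and 619.6 in naive replicates 4 to 6 and 1245, 814.7, 2477, 1327 and 979 in the tumor-activated arrays. The groups did not overlap, though by a small margin. The rise was 2.11-fold (log2 1.08, SE 0.31, adjusted p = 0.0172), and without naive replicate 4 the log2 change was 0.88 and missed the threshold (adjusted p = 0.0835). The call was also lost when the fit held these groups alone (adjusted p = 0.0626). The dimmer probe set (1439790_at) went from 181, 218 and 162 to 332, 262, 462, 257 and 256, and its 1.55-fold difference did not pass (adjusted p = 0.0911).

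Serpinb6b, the granzyme A inhibitor, did not share the rise. It read 659, 336 and 332 in naive replicates 4 to 6, and 364, 706, 77.3, 159.8 and 176 in the tumor-activated arrays. These ranges overlapped, with tumor-activated replicate 2 above every naive array and replicates 3, 4 and 5 below all of them. The log2 change was -0.78 (95% interval -1.78 to 0.22, adjusted p = 0.23). Without tumor-activated replicate 2 it was -1.15 and passed as a fall (adjusted p = 0.0347). With arrays centred on the T cell markers it was 1.26 and passed as a rise (adjusted p = 0.0352), a scaling that put the median of all probe sets at 1.92.

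**Figure D2:**
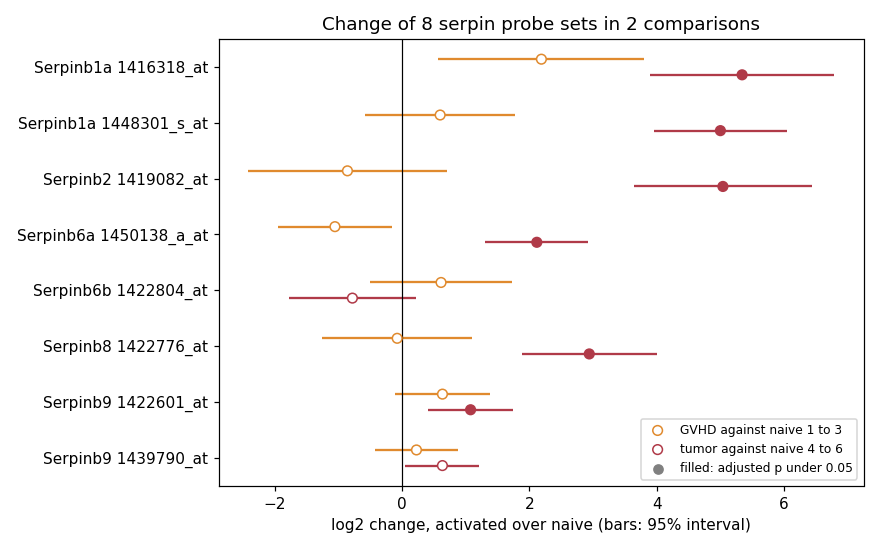
Log2 change with its 95% interval for each of the 8 serpin probe sets in GVHD (orange, against naive replicates 1 to 3) and tumor (red, against naive replicates 4 to 6), filled where the adjusted p was under 0.05. No GVHD point is filled, and 6 tumor points are, up to 5.34 for Serpinb1a.

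The second comparison set the GVHD-activated samples against naive replicates 1 to 3. None of the 8 serpin probe sets passed limma's adjusted test in either direction, where 8.7% of all tested probe sets rose and 11.9% fell. At an unadjusted p under 0.05, 2 differed, 1 higher and 1 lower. For 4 of the 8, GVHD-activated and naive arrays did not overlap, as for 46.5% of all tested probe sets. The median change was 0.41, against -0.13 over all. The GVHD-activated arrays and naive replicates 1 to 3 were deposited in different scale and number format sets, so set and group cannot be told apart here.

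Serpinb9 read 405, 325 and 269.95 in naive replicates 1 to 3 and 561, 513 and 514 in the GVHD-activated arrays. All 3 GVHD-activated arrays were higher, by 0.64 on the log2 scale (95% interval -0.11 to 1.38, adjusted p = 0.221). Against naive replicates 4 to 6 the difference was -0.14. Its dimmer probe set differed by 0.23 (adjusted p = 0.654). Serpinb6b read 505, 428 and 409 in naive replicates 1 to 3 and 1048, 497 and 651 in GVHD, with the lowest GVHD-activated array inside the naive range. Its log2 difference was 0.61 (95% interval -0.51 to 1.73, adjusted p = 0.454). For neither gene was a change established at this number of arrays, and the intervals do not show that there was none.

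Serpinb6a read 1246, 824 and 1011 in naive replicates 1 to 3 and 512, 497 and 413 in GVHD. Every GVHD-activated array lay below all 6 naive arrays, yet the log2 difference of -1.05 (SE 0.43) did not pass with the spread shared over all groups (adjusted p = 0.0937). It passed as a fall when tumor-activated replicate 3 was left out (adjusted p = 0.0011), and when the fit held the groups compared alone (adjusted p = 0.00254). On the deposited scale the sign turned, to 0.47, where the median of all probe sets was 1.27.

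Serpinb1a (1416318_at) read 12.6, 34.5 and 17.2 in naive replicates 1 to 3 and 419, 221 and 89.3 in GVHD. The groups did not overlap, and the 4.56-fold difference (log2 2.19, SE 0.76) missed the threshold (adjusted p = 0.0527). It passed without GVHD-activated replicate 3 (adjusted p = 0.0453), without naive replicate 5 (0.0232), without naive replicate 6 (0.00267) or without tumor-activated replicate 3 (0.0346). The direction rested on the control set, since against naive replicates 4 to 6 the log2 difference was -1.30 (adjusted p = 0.206). The other Serpinb1a probe set differed by 0.60 (adjusted p = 0.487). Serpinb2 was near the floor in GVHD, at 3.7, 3.7 and 4.5, against 30.6, 79.2 and 7.6 in its controls (adjusted p = 0.453). Serpinb8 read 12.4, 12.3 and 2.8 in GVHD and 14.1, 14.1 and 5.6 in its controls (adjusted p = 0.944), all below the level the filter asks for.

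The third comparison asked whether the changes in the tumor and GVHD settings differed. The difference of changes passed, higher in tumor, for 4 of 8 serpin probe sets and lower for none. Of all tested probe sets 5.57% passed as higher and 2.51% as lower, 8.08% together. The probe sets of Serpinb2 and Serpinb8 and the dimmer one of Serpinb1a passed the filter only through the tumor-activated arrays. The count therefore supports no shift of the family. Among the probe sets that pass the filter without those arrays, only that of Serpinb6a passed the test. The difference was 5.89 on the log2 scale for Serpinb2 (adjusted p = 0.00144) and 4.40 for Serpinb1a 1448301_s_at (adjusted p = 0.0015). For Serpinb6a it was 3.17 (adjusted p = 0.00236) and for Serpinb8 3.02 (adjusted p = 0.0188). The brighter Serpinb1a probe set reached 3.15 and did not pass (adjusted p = 0.0737), but passed without naive replicate 6 at 4.44 (adjusted p = 0.000344). Its size rested on the control set and the scaling, with 10.1 when the naive sets were swapped (adjusted p = 6.19e-06), 6.64 with all 6 naive arrays (adjusted p = 3.34e-06) and 1.72 on the deposited scale (adjusted p = 0.157). The call for Serpinb8 was lost without naive replicate 4 (adjusted p = 0.0508) or naive replicate 5 (adjusted p = 0.0572), and with arrays centred on the T cell markers (4.69, adjusted p = 0.0855). Without naive replicate 6 the difference rose to 6.95 for Serpinb2 and 5.21 for Serpinb1a 1448301_s_at, and without naive replicate 5 it was 5.12 and 3.81. Serpinb9 differed by 0.44 (adjusted p = 0.668) and Serpinb6b by -1.39 (adjusted p = 0.291). A different tumor and GVHD response of Serpinb9 was therefore not shown, although its tumor change passed the test and its GVHD change did not.

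Set directly against the GVHD-activated arrays, 6 serpin probe sets were higher in the tumor-activated arrays and 1 was lower. Of all tested probe sets 17.6% were called higher and 16.2% lower, 33.8% together. The lower serpin was Serpinb6b, at 2.77-fold (log2 -1.47, adjusted p = 0.0248), with tumor-activated replicate 2 inside the GVHD range. Serpinb9 was 2.32-fold higher in tumor (adjusted p = 0.00728). Against naive replicates 1 to 3 in place of 4 to 6, 7 of the 8 rose in tumor. Of all tested probe sets 19.8% rose and 24.5% fell there, 44.3% together. Serpinb6b again did not pass (log2 -0.86, adjusted p = 0.152). In both counts, the probe sets of Serpinb2 and Serpinb8 and the dimmer one of Serpinb1a passed the filter only through the tumor-activated arrays. No serpin probe set passed between GVHD and naive replicates 4 to 6, where 31.5% were called. These comparisons share arrays with those above and add no independent support.

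The naive sets themselves differed in Serpinb1a. Its brighter probe set was 11.3-fold higher in naive replicates 4 to 6 than in 1 to 3 (log2 3.49, adjusted p = 0.0138), the only serpin probe set of 8 that passed, where 7.09% of all tested probe sets did. Naive replicate 6 carried most of that signal, but replicates 4 and 5 also lay above naive replicates 1 to 3. Serpinb9 (1422601_at) was 1.71-fold higher in naive replicates 4 to 6 without passing (adjusted p = 0.189), and no naive array of 4 to 6 fell below any of 1 to 3. Serpinb6a, Serpinb6b and Serpinb8 differed by at most 1.16-fold between the naive sets.

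The order of group means differed by gene. Serpinb1a (1416318_at) went from 24561 ± 6592 in tumor (SD, n = 5) through 1329 ± 1901 in naive 4 to 6 (n = 3) and 243 ± 166 in GVHD (n = 3) to 21.4 ± 11.5 in naive 1 to 3 (n = 3), where the middle groups overlapped. Serpinb6a went from 4654 ± 3679 in tumor through 1027 ± 212 and 872 ± 49.3 in the naive sets, which overlapped, to 474 ± 53.4 in GVHD. Serpinb9 (1422601_at) went from 1369 ± 653 in tumor through 597 ± 147 in naive 4 to 6 and 529 ± 27.7 in GVHD, which overlapped, to 333 ± 67.7 in naive 1 to 3. Serpinb6b was lowest in tumor, going from 732 ± 284 in GVHD through 448 ± 50.9 and 442 ± 188 in the naive sets to 297 ± 252 in tumor, and all 4 ranges overlapped with a neighbour. Serpinb2 and Serpinb8 had a mean signal above 200 only in tumor, at 4866 ± 3003 and 403 ± 372.

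The order of the 5 tumor-activated arrays set the genes apart as well. From high to low, Serpinb6b ran through replicates 2, 1, 5, 4 and 3, which is the order of the T cell marker sums (40074, 30439, 15932, 15519.9 and 4320.4). Serpinb6a and Serpinb8 both ran through replicates 3, 5, 4, 1 and 2, the order of the macrophage marker sums. Serpinb1a (1416318_at) ran through 3, 2, 5, 4 and 1, the order of the mast cell marker sums, and Serpinb2 through 3, 4, 5, 1 and 2, the order of the P815 sums. The other Serpinb1a probe set (3, 5, 2, 4, 1) and Serpinb9 (3, 4, 1, 5, 2) matched none of these 4 orders. These matches were noticed in the data, among the sums of 8 marker lists and over 5 arrays, and are a description. Replicates 4 and 5 were close in several of these values, at 3526 and 3538 for Serpinb6a. Whether other cell types carried these signals was not tested.

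**Figure D3:**
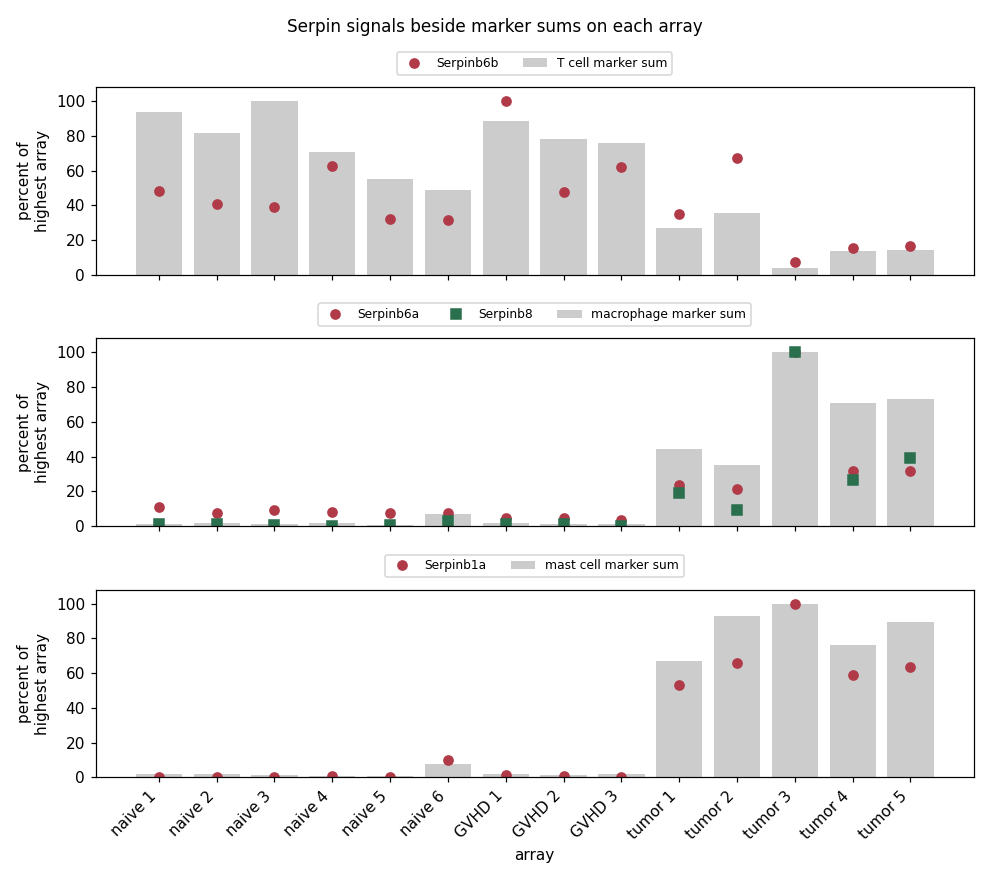
Signals of Serpinb6b, Serpinb6a, Serpinb8 and Serpinb1a (points) beside the summed T cell, macrophage and mast cell markers (grey bars) on the 14 arrays, each as a percentage of its own highest array. Serpinb6b is lowest in tumor-activated replicate 3, where the T cell sum is also lowest, and the other serpins are highest there.

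Across all 14 arrays, Pearson's r of log2 signals among Serpinb1a, Serpinb2, Serpinb6a, Serpinb8 and Serpinb9 lay between 0.787 and 0.947. Serpinb6b correlated negatively with each of the other 5, from -0.555 to -0.802. The arrays share their groups, so these values largely restate the group differences. Serpinb1a was most like Anxa1 (r = 0.978) and Tm6sf1 (0.978), followed by Hs6st2 (0.971) and Rhox5 (0.970), an X-linked homeobox gene and 1 of the P815 markers used here. Serpinb2 was most like Hspa9 (0.990), Slc7a2 (0.987), the macrophage scavenger receptor Marco (0.987) and the phagocyte oxidase subunit Ncf1 (0.983). Serpinb8 was most like the coagulation factor F7 (0.988), Mcemp1 (0.986), the macrophage scavenger receptor Msr1 (0.985) and Bbs5 (0.983). Serpinb6a was most like Nqo2 (0.981), its next neighbour on chromosome 13, then Apex1 (0.979), Ece2 (0.972) and Swt1 (0.969). Serpinb9 was most like Arl1 (0.966), Atp6ap2 (0.964), Nars (0.962) and Uba3 (0.960). Serpinb6b was most like D16Ertd472e (0.954), Slc9a3r1 (0.943), Agfg1 (0.937) and the T cell surface protein gene Thy1 (0.935).

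The partner proteases were read on the same arrays. Of 24 granule and target protease genes on the array, 14 passed the filter. In GVHD 4 of them rose and none fell, where 8.7% of all tested probe sets rose and 11.9% fell. Gzmb, granzyme B, read 612 ± 124 (SD, n = 3) in naive replicates 1 to 3 and 83732 ± 10003 (n = 3) in GVHD, a 131-fold rise (adjusted p = 4.06e-08), beside the Serpinb9 difference of 0.64 on the log2 scale, which did not pass. Gzma, granzyme A, went from 116 ± 114 to 8972 ± 1269, a 76.5-fold rise (adjusted p = 1.07e-06), beside 0.61 for Serpinb6b. The size of these rises rested on the control set. Against naive replicates 4 to 6, Gzmb was 41.6-fold and Gzma 41.8-fold higher in GVHD. Gzmb itself was 3.15-fold higher in naive replicates 4 to 6 than in 1 to 3 (adjusted p = 0.0439). Against naive replicates 1 to 3, Gzmc rose 5.44-fold and Gzmk 4.10-fold. The partners of Serpinb1a, Serpinb6a and Serpinb8 did not pass in GVHD, with log2 differences of -0.43 for Ctsg, 0.56 for Prtn3 and 0.03 for Furin.

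In tumor, 6 of the 14 proteases rose and none fell, where 14.1% of all tested probe sets rose and 16.4% fell. Of the 6, Ctsg, Prtn3 and Mcpt8 passed the filter only through the tumor-activated arrays, so the filter favoured their rise. The largest rises were those of the mast cell and basophil protease Mcpt8 (106-fold), the cathepsin G gene Ctsg (84.9-fold), the mast cell chymase Cma1 (20.3-fold) and the proteinase 3 gene Prtn3 (13.2-fold). Ctsg read 213 ± 296 (n = 3) in naive replicates 4 to 6 and 13412 ± 7592 (n = 5) in tumor (adjusted p = 4.35e-06). Its known inhibitors Serpinb1a and Serpinb6a both rose in the same arrays. Furin rose 2.74-fold (adjusted p = 0.00199), from 633 ± 82.4 to 1865 ± 548, in arrays where Serpinb8 was also higher. Gzmb rose 8.22-fold (adjusted p = 7.79e-05), from 2208 ± 1361 to 19173 ± 12780, with Serpinb9 2.11-fold. Gzma did not pass at 2.58-fold (adjusted p = 0.0518), and neither did Serpinb6b. Elane, neutrophil elastase, and Plau, urokinase, did not pass the filter. Mcpt8, Ctsg and Cma1 rose in arrays where mast cell and P815 markers rose, Cma1 is itself in the mast cell list, and the part of such cells in these values was not tested.

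**Figure D4:**
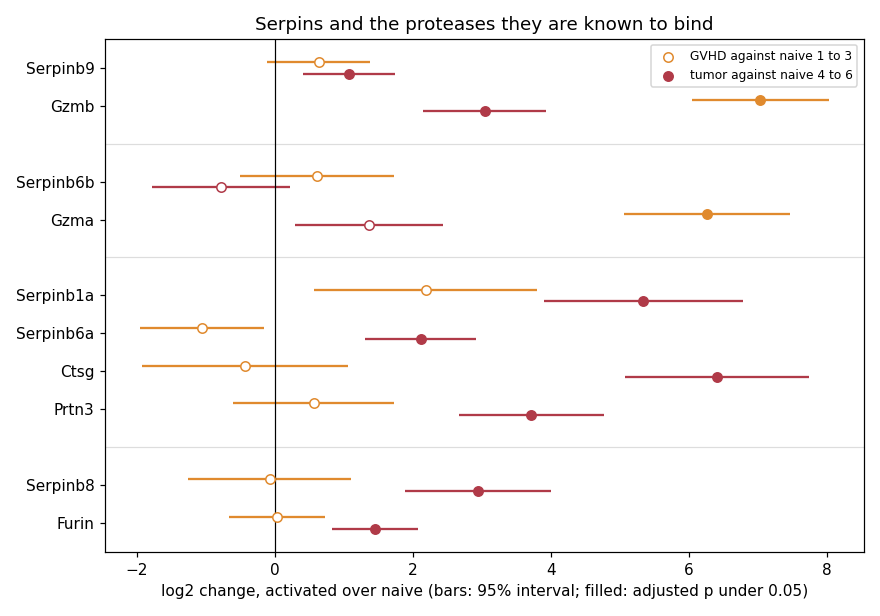
Log2 change with its 95% interval for serpins and the proteases they are known to bind, in GVHD (orange) and tumor (red), filled where the adjusted p was under 0.05. Gzmb and Gzma lie at 7.03 and 6.26 in GVHD while Serpinb9 and Serpinb6b lie at 0.64 and 0.61 with intervals that include 0.

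The other intracellular serpins were mostly dim. Of 12 further clade B genes on the array, 2 passed the filter, and none passed the test in GVHD. Serpinb7, which lies next to Serpinb2, rose 15.9-fold in tumor (adjusted p = 0.000112), from 45.7 ± 64.8 (n = 3) to 1203 ± 789 (n = 5), and was highest among naive arrays in replicate 6, at 120. It too passed the filter only through the tumor-activated arrays, as did Ctsg, Prtn3 and Mcpt8 among the proteases. Of 22 serpins outside clade B, 7 passed the filter and none passed the test in GVHD. In tumor, Serpinf1 rose 2.28-fold, while Serpini1 fell 2.57-fold and Serpinc1 2.24-fold.

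Inhibitors and proteases of the cysteine class, and the genes that release granules, gave a further comparison. Of the 3 cystatins tested, none passed in GVHD and all rose in tumor, Cst3 2.94-fold, Cst7 2.84-fold and Cstb 2.41-fold. Of the 12 cathepsins, 3 rose and 4 fell in GVHD. Ctsc, which activates granzymes, rose 3.69-fold, and Ctsl, Ctsw and Ctsk fell 4.39-fold, 3.69-fold and 3.23-fold. The fall of Ctsw rested on the control set. Ctsw averaged 571 in GVHD, 2162 in naive replicates 1 to 3 and 462 in naive replicates 4 to 6. With naive replicates 4 to 6 as controls, Ctsk was lower without passing (log2 -0.81, adjusted p = 0.0526). Ctsl still fell there (adjusted p = 0.000671). All Ctsk signals in GVHD were near the floor, at 13.3 to 23.0. In tumor 6 of the 12 cathepsins rose and 2 fell. The largest rises were 11.3-fold for Ctsl, 6.77-fold for Ctsz, 5.61-fold for Ctsh and 3.93-fold for Ctsd. Ctsc rose in tumor too, by 3.74-fold, but the control sets differed, with Ctsc 2.29-fold higher in naive replicates 4 to 6 (adjusted p = 0.0119). Against naive replicates 4 to 6 its GVHD rise was 1.61-fold (adjusted p = 0.0484). Set directly against GVHD, Ctsc was 2.32-fold higher in tumor (adjusted p = 0.000748). Of 8 genes for granule release and the pore, 4 rose in GVHD. Nkg7 rose 37.7-fold, the perforin gene Prf1 3.77-fold, Stx11 1.96-fold and Rab27a 1.69-fold. The rises of Stx11 and Rab27a rested on the control set. Stx11 averaged 2722 in GVHD, 1377 in naive replicates 1 to 3 and 2553 in naive replicates 4 to 6. Rab27a averaged 2146, 1254 and 2347 in the same groups. In tumor 4 of the 8 rose and 2 fell, with Prf1 7.05-fold and Nkg7 4.20-fold higher, Gnptab 1.97-fold higher and Unc13d 2.45-fold lower. Median changes of the granule release genes were 0.79 in GVHD and 0.65 in tumor, against -0.13 and -0.12 over all tested probe sets. Beside the counts of this paragraph, 8.7% of all tested probe sets rose and 11.9% fell in GVHD, and 14.1% rose and 16.4% fell in tumor.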

How the data were processed

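RNA of 14 sorted Treg samples was read on 1-colour Affymetrix mouse arrays. The deposited values are intensity signals of 45101 probe sets that the authors computed with MAS5, per the submitters' processing notes, version unstated. RNA was extracted with Trizol and labelled with biotin, per the labels' protocols. The deposited arrays had a 2% trimmed mean of 500, except the GVHD-activated arrays at 1500. Naive replicates 1 to 3 carry more digits than the others, so the deposited tables fall into 3 sets by scale and format.

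All arrays were brought to a 2% trimmed mean of 500 and an offset of 32 was added before log2. Probe sets with a signal of at least 100 in at least 3 arrays and 1 gene symbol in the platform annotation were tested with limma 3.58.1 in R 4.3.3 (lmFit, eBayes with a trend), as a model of 4 group means over all 14 arrays, with Benjamini-Hochberg adjustment over 22153 probe sets and a threshold of 0.05. The scripts were tested on simulated data. No array was a copy of another (highest r = 0.979). The number of arrays limits the precision.

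Same-numbered naive and activated arrays were checked for pairing. Their deviations correlated between -0.508 and 0.0895 and did not pair them. The serpins, the marker lists and the lists of other serpins, proteases, cathepsins, cystatins and granule genes were chosen with earlier results of these data known. From each further list other than the marker lists, at most 4 called genes per comparison were named, by size of change. Protease partners, and Ctsc in tumor, were named in addition. The most alike genes are the 4 of highest Pearson r per serpin. Alternatives covered the offset, filter, scaling, probe set choice, trend, array weights, groups in the fit, control set, replicate block and each array left out. Promoter sequences and coordinates are RefSeq's, on GRCm38.p6.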

Additional observations from a re-analysis of the deposited data

Results flagged for a closer look

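Among the 5 tumor-activated arrays, replicate 3 lay apart from the rest for 2 serpin probe sets. It read 35943.6 for Serpinb1a (1416318_at), with a gap to the next array of 0.728 of the whole range, and 11170.6 for Serpinb6a, with a gap of 0.869, against a critical value of 0.71 for 5 samples. The gaps were taken on scaled signals and were not computed on the log2 scale of the tests, where they would differ. Chance passes about 1 in 20 groups. The same array had the lowest T cell marker sum and the highest macrophage and P815 sums.

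The tumor change and the GVHD change differed, by the test of the difference itself, for 4 probe sets. The log2 differences were 4.40 for Serpinb1a 1448301_s_at, 5.89 for Serpinb2, 3.17 for Serpinb6a and 3.02 for Serpinb8. The last was not called without naive replicate 4 or 5, nor in 2 other settings. Of these probe sets, all but that of Serpinb6a passed the filter only through the tumor-activated arrays.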

How the results depend on the processing

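Of 682 serpin values recomputed under 29 alternative settings (14 of them leave out 1 array each), 628 kept their direction and their side of the threshold, 8 no longer passed, 34 newly passed and 12 changed sign. "Rose in tumor" held for 4 to 8 of the probe sets, with 4 under the replicate block, where Serpinb6a (log2 1.96, adjusted p = 0.0518) and Serpinb9 1422601_at (0.97, adjusted p = 0.247) no longer passed, nor did the difference of changes for Serpinb8 (3.42, adjusted p = 0.0684). The count that rose in GVHD, 0 in the report, was 5 on the deposited scale, and 1 with an offset of 16, with quantile normalization, with only the groups compared, with the replicate block and without tumor-activated replicate 3 and naive replicate 6 together. Leaving out single arrays gave 0 to 1. The count that fell in GVHD, also 0, was 1 with array weights, with only the groups compared and without those 2 arrays together, and 0 to 1 with single arrays left out. The count that fell in tumor was 1 with array weights and 0 to 1 with single arrays left out. A negative difference of changes was called for 1 probe set with all 6 naive arrays and for 1 on the deposited scale.

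Signs turned mostly in GVHD. With the control sets swapped, Serpinb1a gave -1.30 (1416318_at) and -0.85 (1448301_s_at) and Serpinb9 1422601_at gave -0.14. With all 6 naive arrays, Serpinb1a 1448301_s_at gave -0.13. On the deposited scale Serpinb6a gave 0.47 and Serpinb8 0.42 in GVHD, and the difference of changes was -1.09 and -1.03 for the 2 Serpinb9 probe sets. Centred on T cell markers, Serpinb8 gave 0.29 in GVHD, and Serpinb6b gave 1.26 in tumor and 0.28 for the difference. Leaving out single arrays put Serpinb8 in GVHD between -0.17 and 0.041. The cause was not tested.

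Over all probe sets, calls in GVHD numbered 4558, and 491 when centred on T cell markers and 15943 on the deposited scale. In tumor they numbered 6760, 2052 with the replicate block and 15325 when centred on T cell markers. For the difference they numbered 1790, and 805 and 14470 under the same scalings as in GVHD. Higher calls made up 42.3% in GVHD, 52.8% with quantile normalization, 67.0% when centred on T cell markers and 97.4% on the deposited scale. In tumor they made up 46.2% and, when centred on T cell markers, 99.8%. For the difference they made up 68.9%, 99.6% when centred and 3.9% on the deposited scale, where the median of all probe sets was 1.64 and -1.45. Restricting the fit to the groups compared could give no separate value for the difference, which uses all 4 groups.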
